A study of Drosophila melanogaster with 6 samples.

Results

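The inducible Hsp70 genes of Drosophila melanogaster and 4 genes that act beside them in the heat shock response were followed in late embryos. The 10 genes are 6 near-identical Hsp70 copies (Hsp70Aa, Hsp70Ab, Hsp70Ba, Hsp70Bb, Hsp70Bbb and Hsp70Bc) and the 4 partners Hsp68, stv, DnaJ-1 and lncRNA:Hsromega. They were taken by name from a table of 17208 genes. The choice was made knowing their values in ft null and w1118 embryos, so the difference between the genotypes is given for them as a description, with no p-value of their own. How many lay past the threshold used for all genes is recorded below only as a count.

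RNA was sequenced from 4 libraries of embryos with the allele pair ft fd5-5/ft X13, described by the submitters as null for ft (ft null), and from 2 libraries of w1118 embryos. The gene ft encodes Fat, a large cadherin of planar polarity and Hippo signalling, and w1118 is a laboratory stock that lacks function of the eye colour gene white. All embryos were aged to 16-20 h at 25 °C, and no heat treatment is named in the labels for any library. The w1118 stock is the wild type of the study, and the genotypes therefore differ in strain background as well as at ft. Strain, developmental age within the 16-20 h window and an effect of the ft alleles cannot be told apart for any gene below. Nor can they be told apart from differences in the handling or batch of the embryos. The labels do not say whether libraries of a genotype came from separate collections of embryos. The p-values then measure only how these samples vary, which can be technical variation.

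Hsp70 proteins are chaperones that bind unfolded protein and release it in a cycle of ATP binding and hydrolysis. J-domain proteins such as DnaJ-1 bring clients and stimulate the hydrolysis, and BAG-domain proteins such as Starvin, the product of stv, speed the exchange of nucleotide. The inducible copies are transcribed from paused polymerase after heat shock factor (Hsf) binds their promoters, whereas the cognate Hsc70 genes are expressed without stress.

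Libraries held 21261928 to 29151981 estimated counts in ft null and 22217098 and 29131506 in w1118. Levels below are counts per 1000000 (CPM), scaled by TMM factors over the whole table. The gene ft was at 30.1 ± 1.63 CPM in ft null embryos (SD, n = 4) and 44.8 ± 2.17 CPM in w1118 (SD, n = 2). The counted part of the transcript was therefore still present in the mutants, at a lower level (log2 difference -0.57, edgeR adjusted p = 0.0249). The gene white (w) had few reads, with 0.384 to 1.14 CPM in ft null and 0.0975 and 0 CPM in w1118. Its difference did not pass (log2 difference 3.66, edgeR adjusted p = 0.0671). The 6 late embryo tissue markers were detected in every library, with summed levels of 12382 to 14593 CPM in ft null and of 8952 and 14502 CPM in w1118, most of it from Mhc and verm. At an unadjusted p under 0.05 in edgeR, 3 of the 6 were higher in ft null and 0 lower, where 9.92% of all tested genes were higher, and none passed after adjustment in edgeR, DESeq2 or limma voom over all libraries. The hemocyte marker Hml averaged 9.10 ± 5.24 CPM in ft null embryos (SD, n = 4) and 2.49 ± 1.73 CPM in w1118 (SD, n = 2), with overlap, and passed without ft null replicate 1 (log2 difference 2.22, edgeR adjusted p = 0.0191). The levels of verm (log2 difference 0.54) and Fas3 (0.43) did not overlap. All ft null libraries lay above both w1118 libraries for these genes, as they did in 15.1% of all tested genes. The part of these tissues in the results below was not tested. The 8 adult female and maternal markers summed to 5.42 to 11.0 CPM in ft null and to 6.42 and 10.3 CPM in w1118. Mitochondrially encoded transcripts took 0.573% to 0.818% of counts in ft null, and 0.859% and 0.206% in w1118 replicates 1 and 2. Among the ft null libraries, replicate 1 stood apart in the Hsp70 copies.

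The inducible Hsp70 genes were abundant in w1118 embryos and low in 3 of the 4 ft null libraries. Summed over the 6 copies, Hsp70 stood at 922.0, 138.4, 192.1 and 148.6 CPM in ft null replicates 1 to 4, and at 2496 and 2059 CPM in w1118 replicates 1 and 2. All ft null libraries lay below both w1118 libraries, and the lowest w1118 value was 2.23 times the highest ft null value. The means were 350 ± 382 CPM in ft null embryos (SD, n = 4) and 2277 ± 309 CPM in w1118 (SD, n = 2). The fitted log2 fold change of the sum was -2.70 (SE 0.73) over all libraries. It was -3.83 without ft null replicate 1 and between -2.83 and -2.44 with any other single library left out. In whole embryos, fewer cells with the transcript and less RNA per cell cannot be told apart.

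Behind the sum stood 19409, 3032, 4587 and 4255 reads in ft null replicates 1 to 4 and 76818 and 44901 reads in w1118. These were 0.0913%, 0.0134%, 0.0196% and 0.0146% of all counts in ft null, against 0.264% and 0.202% in w1118. Of the 11542 genes tested, 45 had a log2 fold change at or below that of the sum.

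**Figure D1:**
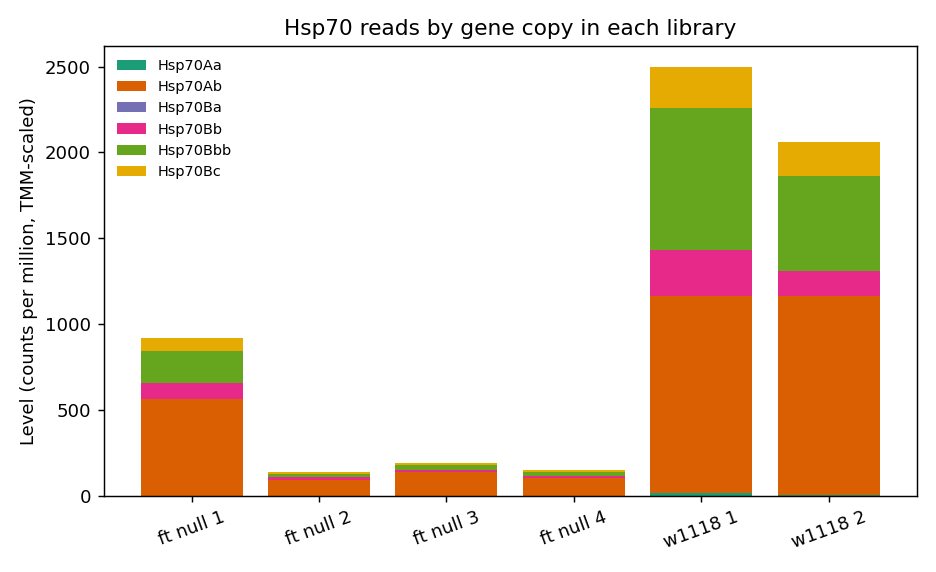
Level of each Hsp70 copy (CPM, TMM-scaled) stacked in each of the 4 ft null and 2 w1118 libraries, on an axis that starts at 0. The stack reaches 922.0 CPM in ft null replicate 1, 138.4 to 192.1 CPM in the other ft null libraries, and 2059 and 2496 CPM in w1118, and Hsp70Ab and Hsp70Bbb make up most of it.

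The copies lie in 2 clusters on chromosome arm 3R (dm6 coordinates). At 87A, Hsp70Aa (11954163 to 11956544, minus strand) and Hsp70Ab (11958535 to 11960909, plus strand) point away from each other within 6747 bases. At 87C, Hsp70Ba (12465453 to 12467776, minus strand) lies apart from Hsp70Bbb (12502510 to 12504856), Hsp70Bb (12505793 to 12508139) and Hsp70Bc (12509076 to 12511461), which follow each other on the plus strand, and the 4 copies span 46009 bases. Each copy is a single exon, of 2324 to 2386 bases. Reads that match several copies are divided among them by a model, so a copy's own value is less certain than the sum.

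Hsp70Ab at 87A was the most abundant copy in every library. It stood at 564, 91.5, 140 and 105 CPM in ft null replicates 1 to 4, and at 1146 and 1159 CPM in w1118. The w1118 libraries were nearly equal for this copy, and ft null replicate 1 lay between them and the other mutants. Its log2 fold change was -2.36 (SE 0.67), and -3.36 without ft null replicate 1. Hsp70Aa, the other copy at 87A, had 0 reads in all 4 ft null libraries, against 490 and 137 reads in w1118 replicates 1 and 2 (15.9 and 6.29 CPM). Against a floor of 3 counts over the ft null libraries, Hsp70Aa was at least 353-fold lower in ft null, and at least 200.1-fold without w1118 replicate 1. This bound covers counting error only, since the reads carry no molecular identifiers that would mark PCR copies, and it takes the division of reads among copies as given. Whether the 0 reads reflect the sequence of this copy in the ft null stock was not checked.

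At 87C, Hsp70Bbb was the most abundant copy in w1118. It stood at 185, 15.6, 27.9 and 25.2 CPM in ft null replicates 1 to 4 and at 826 and 557 CPM in w1118, with a log2 fold change of -3.45 (SE 0.88). Hsp70Bc had 77.5, 10.5, 10.9 and 7.34 CPM in ft null and 236 and 194 CPM in w1118 (log2 fold change -3.03, SE 0.85). Both copies kept every ft null library below both w1118 libraries, with replicate 1 the highest of the mutants. Hsp70Bb had 94.5, 20.7, 13.6 and 10.7 CPM in ft null and 271 and 142 CPM in w1118. Its groups lay closest of these 3 but did not overlap, and its log2 fold change was -2.57 (SE 0.79). Without ft null replicate 1, the log2 fold changes were -4.91 for Hsp70Bbb, -4.49 for Hsp70Bc and -3.79 for Hsp70Bb.

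Hsp70Ba was the 1 member that did not pass the filter on low counts. It had 28.9, 0, 0 and 2.15 reads in ft null replicates 1 to 4 and 11.1 and 2.36 reads in w1118, and the groups overlapped. Of its reads in ft null, all but 2.15 lay in replicate 1, where the copy stood at 1.37 CPM, above the 0.360 and 0.108 CPM of the w1118 libraries.

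The estimated mix of copies within the Hsp70 reads was not the same in the 2 genotypes. It rests on the model's division of reads among near-identical copies, and the sequences of the copies in the 2 stocks were not compared. Hsp70Ab held 61.1%, 66.1%, 72.7% and 70.8% of the Hsp70 reads in ft null replicates 1 to 4, against 45.9% and 56.3% in w1118. The groups did not overlap, and the means of 67.7 ± 5.18% in ft null (SD, n = 4) and 51.1 ± 7.33% in w1118 (SD, n = 2) were 16.6 percentage points apart. The difference was between 11.4 and 21.8 points with any single library left out. Hsp70Bbb took the smaller share in ft null, 15.7 ± 3.72% against 30.1 ± 4.26% in w1118. Hsp70Bc held 6.66 ± 1.62% in ft null and 9.45 ± 0.0267% in w1118, and Hsp70Bb 9.88 ± 3.70% and 8.88 ± 2.80%, with n = 4 and n = 2 throughout. The exact 95% binomial interval of a share in one library reached at most 1.72 points to either side in ft null and 0.461 points in w1118. The interval covers counting error only and takes the division of reads among copies as given.

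By cluster, 87A summed to 564, 91.5, 140 and 105 CPM in ft null and to 1162 and 1166 CPM in w1118. The 87C copies summed to 358, 46.9, 52.4 and 43.4 CPM in ft null and to 1333 and 893 CPM in w1118. The w1118 libraries therefore matched at 87A (1164 ± 2.28 CPM, n = 2) and were apart at 87C (1113 ± 311 CPM, n = 2). The log2 fold change was -2.37 for the 87A sum and -3.15 for the 87C sum. Without ft null replicate 1, the mutants averaged 112 ± 24.8 CPM at 87A and 47.5 ± 4.57 CPM at 87C (SD, n = 3). A difference between the clusters was not tested.

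Hsp68, an inducible relative of Hsp70 encoded by a single exon elsewhere on 3R (24055080 to 24057310, minus strand), had its highest value of the mutants in replicate 1, as the Hsp70 sum did. Its level was 49.7, 14.6, 8.54 and 7.27 CPM in ft null replicates 1 to 4 and 204 and 153 CPM in w1118. The groups did not overlap, and the lowest w1118 value was 3.08 times that of ft null replicate 1. The log2 fold change was -3.17 (SE 0.68), and -4.15 without that library. Per kilobase of exon, Hsp68 amounted, relative to the Hsp70 sum, to 5.70%, 11.1%, 4.70% and 5.17% in ft null and to 8.65% and 7.87% in w1118, so the ratio of the 2 chaperones overlapped between the genotypes.

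The J-domain co-chaperone gene DnaJ-1 (3L, 5750029 to 5752189, minus strand) showed a smaller and steadier difference. It stood at 45.7, 37.7, 31.2 and 42.2 CPM in ft null and at 92.1 and 83.5 CPM in w1118. The groups did not overlap, and replicate 1 was close to replicate 4 among the mutants. The means were 39.2 ± 6.26 CPM in ft null embryos (SD, n = 4) and 87.8 ± 6.09 CPM in w1118 (SD, n = 2), with a log2 fold change of -1.16 (SE 0.15) that stayed between -1.24 and -1.07 with any single library left out.

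The noncoding RNA lncRNA:Hsromega (3R, 21296127 to 21317836, plus strand) is known for the nuclear omega speckles, which hold RNA-binding proteins, and for strong induction by heat. It stood at 348, 375, 418 and 371 CPM in ft null and at 736 and 671 CPM in w1118. Its groups did not overlap, and here ft null replicate 1 was the lowest of the mutants. The means were 378 ± 29.1 CPM in ft null embryos (SD, n = 4) and 703 ± 46.0 CPM in w1118 (SD, n = 2), and the log2 fold change was -0.90 (SE 0.12), or -0.96 to -0.83 with any single library left out.

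The BAG-domain gene stv (3L, 13477541 to 13483515, plus strand) differed least. It had 240, 237, 205 and 236 CPM in ft null and 256 and 356 CPM in w1118. The lowest w1118 value was 1.06 times the highest ft null value, so the groups barely separated. The log2 fold change was -0.41 (SE 0.15), but -0.63 without w1118 replicate 1 and -0.15 without w1118 replicate 2.

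**Figure D2:**
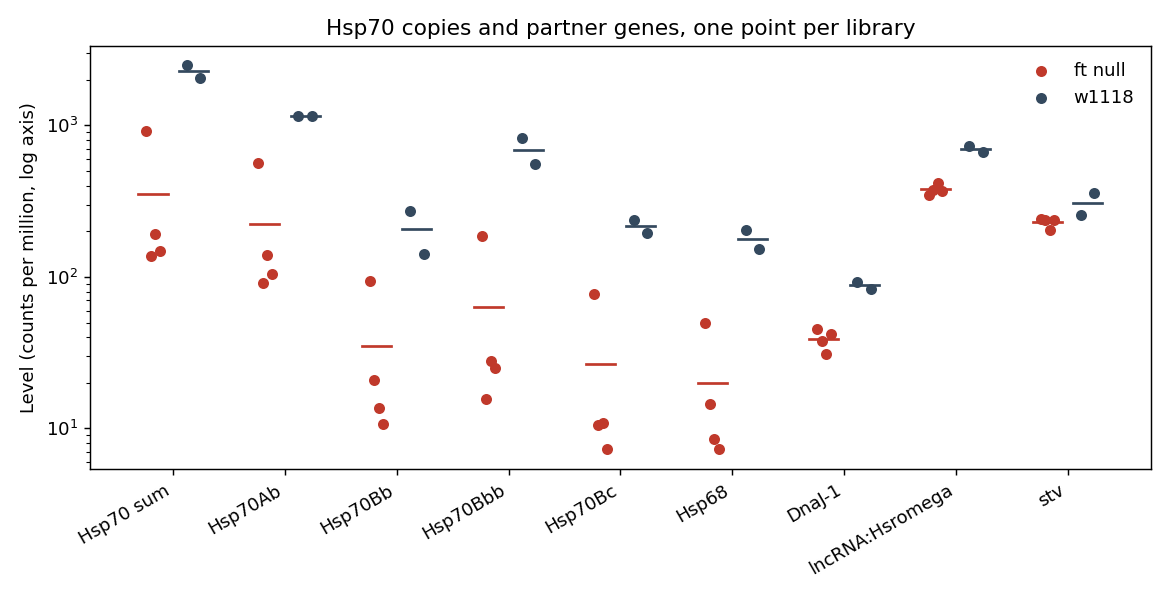
Level (CPM, log axis) of the Hsp70 sum, the 4 Hsp70 copies other than Hsp70Aa and Hsp70Ba, and the 4 partner genes, one point per library with a line at the mean of each genotype. In ft null the Hsp70 copies and Hsp68 are drawn out by replicate 1, whereas DnaJ-1, lncRNA:Hsromega and stv lie close together; every ft null point lies below both w1118 points.

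Across the genome, 496 of 11542 tested genes differed at an adjusted p under 0.05 (edgeR quasi-likelihood test, Benjamini-Hochberg), which is 4.30%, and 2.15% were lower in ft null. The number was 806 without ft null replicate 1, and 231, 232, 205 and 173 without ft null replicate 2, ft null replicate 3, w1118 replicate 1 and w1118 replicate 2 in that order. Of the 9 members tested, 4 were past that threshold and lower in ft null, namely Hsp70Aa, Hsp68, DnaJ-1 and lncRNA:Hsromega. With 0 reads in ft null, Hsp70Aa could pass the filter on low counts only through w1118, so its direction was fixed by the filter. In all 9 the ft null libraries lay below both w1118 libraries, as they did in 16.4% of all tested genes. Because the members were chosen on this contrast, nothing is read from these counts. Their median log2 fold change was -2.57, and it was 0.01 over all tested genes. It remained -2.57 with Hsp70Aa set at its bound of -8.46.

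The count of members past the threshold moved with single libraries, as did the count over all tested genes. Without ft null replicate 1, 8 of 9 members passed, all but stv, where 3.31% of tested genes were lower. Without ft null replicate 2 or ft null replicate 3, 3 members passed and Hsp68 dropped out. Genes lower in ft null then numbered 111 and 109, against 248 over all libraries. Without w1118 replicate 1, the log2 fold change was -2.94 for Hsp68 and -1.09 for DnaJ-1. It was -3.35 and -1.23 without w1118 replicate 2.

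**Figure D3:**
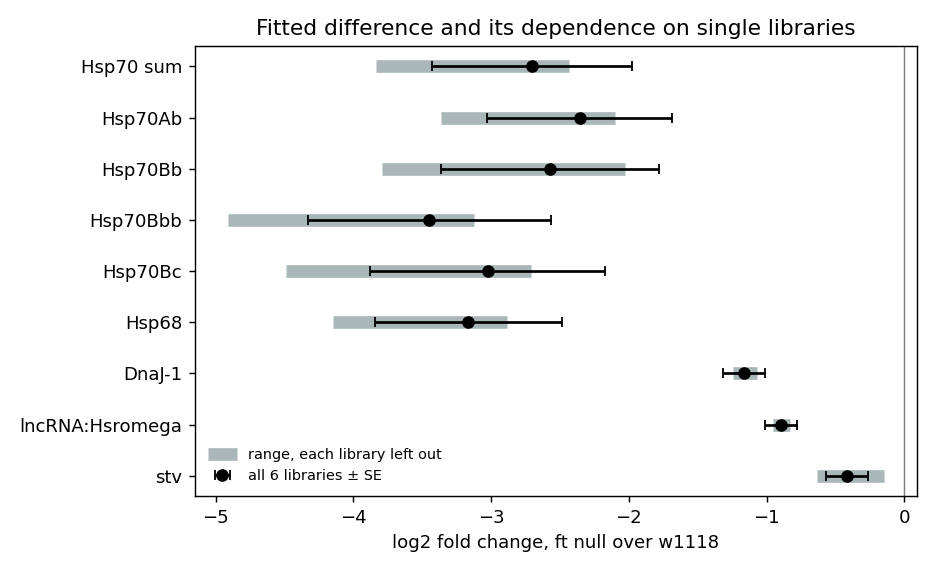
Fitted log2 fold change of ft null over w1118 for the Hsp70 sum and the 8 members that passed the filter, Hsp70Aa apart, with bars for the standard error over all 6 libraries and a grey band for the range when each library is left out in turn. The band runs from -3.83 to -2.44 for the sum, from -0.96 to -0.83 for lncRNA:Hsromega and from -0.63 to -0.15 for stv. No band reaches 0, which could be foreseen for members chosen on this contrast whose groups do not overlap.

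Spread among the ft null libraries was wide for some members and narrow for others. For Hsp70Ab, Hsp70Bb, Hsp70Bbb, Hsp70Bc and Hsp68, the coefficient of variation was 100% to 128%, and the highest library exceeded the lowest by 6.16-fold (Hsp70Ab) to 11.9-fold (Hsp70Bbb). The values of lncRNA:Hsromega varied by 7.71%, those of stv by 7.12% and those of DnaJ-1 by 16.0%. In relation to the w1118 mean on the log2 scale, the Hsp70 sum lay at -1.30 in ft null replicate 1, and at -4.03, -3.56 and -3.93 in replicates 2 to 4.

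Levels of the members can be ordered per kilobase of exon. For lncRNA:Hsromega the joined exons cover the whole gene, 21710 bases, so its value is too low if shorter transcripts carry the reads. Before division by length it averaged 703 CPM in w1118, against 87.8 CPM for DnaJ-1. In ft null the order was Hsp70Ab (94.7 CPM per kb), stv (62.6), Hsp70Bbb (27.0), DnaJ-1 (18.1), lncRNA:Hsromega (17.4), Hsp70Bb (14.9), Hsp70Bc (11.1), Hsp68 (8.97), Hsp70Ba (0.156) and Hsp70Aa at 0. There, every pair of neighbours in the order overlapped in range except Hsp68 and Hsp70Ba. This order rests on ft null replicate 1. Over the other 3 mutants, stv came first (61.6 CPM per kb), then Hsp70Ab (47.2), lncRNA:Hsromega (17.9), DnaJ-1 (17.1), Hsp70Bbb (9.77), Hsp70Bb (6.40), Hsp68 (4.54), Hsp70Bc (4.02), Hsp70Ba (0.0108) and Hsp70Aa at 0. In w1118 the order was Hsp70Ab (485 CPM per kb), Hsp70Bbb (295), Hsp70Bc (90.2), Hsp70Bb (88.0), stv (83.4), Hsp68 (80.0), DnaJ-1 (40.6), lncRNA:Hsromega (32.4), Hsp70Aa (4.66) and Hsp70Ba (0.101). In w1118 the ranges overlapped between Hsp70Bc and Hsp70Bb, between Hsp70Bb and stv and between stv and Hsp68.

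Set beside Hsc70-4, the abundant cognate that serves unstressed cells and was chosen here after its values were seen, the inducible genes were below it in every library. Per kilobase, the Hsp70 sum amounted to 14.2%, 2.41%, 3.46% and 2.96% of Hsc70-4 in ft null replicates 1 to 4 and to 49.6% and 38.2% in w1118. Taken as 1 gene, the sum ranked 169, 1388, 960 and 1256 among 17078 genes in ft null and 32 and 38 in w1118. The level of Hsc70-4 itself was 6564 ± 713 CPM in ft null embryos (SD, n = 4) and 5994 ± 297 CPM in w1118 (SD, n = 2), with a fitted difference of 0.13 on the log2 scale (SE 0.154) that did not pass (edgeR adjusted p = 0.688).

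Other genes of the response were counted in 4 lists. Among 12 small heat shock proteins, holdases that keep unfolding proteins soluble, 11 were tested, 0 rose, 1 fell and 10 did not pass, where 2.15% of all tested genes fell. Their median log2 fold change was -1.05, against 0.01 over all tested genes, and 9 of the 11 were below 0, as were 48.1% of all tested genes. Hsp67Bc fell to 56.1 ± 3.86 CPM in ft null (SD, n = 4), against 116 ± 10.2 CPM in w1118 (SD, n = 2), with a fitted log2 fold change of -1.05 (SE 0.111), which passed in edgeR (adjusted p = 0.00214) and without each library in turn. The gene lies in a cluster on 3L (9371511 to 9372497) beside Hsp22, Hsp26, Hsp67Ba, Hsp23 and Hsp27, which end at 9385694.

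The neighbours of Hsp67Bc in that cluster did not pass over all libraries, and they were chosen after their values were seen. Hsp22 had 104, 29.3, 15.5 and 2.76 CPM in ft null and 188 and 160 CPM in w1118. Hsp26 had 255, 137, 35.5 and 12.7 CPM in ft null and 319 and 308 CPM in w1118. For both, replicate 1 was the highest mutant library and still below w1118, with replicate 2 next. Hsp27 overlapped between the genotypes, with 161 CPM in ft null replicate 1 and 148 and 226 CPM in w1118. Without ft null replicate 1, Hsp22 (log2 fold change -3.47, edgeR adjusted p = 0.0152) and Hsp67Ba (-2.02, edgeR adjusted p = 0.0219) passed too. The summed level of the list was 1159, 925, 595 and 523 CPM in ft null and 1567 and 1603 CPM in w1118.

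In the list of Hsf, Hsp90 and cytosolic co-chaperones, 19 genes were tested, 0 rose, 1 fell and 18 did not pass, with a median log2 fold change of 0.13. With 4.30% of all tested genes called either way, 1 of 19 is near the background. The gene that fell was Hsc70-2, an Hsp70 cognate of low level in these embryos. It stood at 3.09, 2.37, 2.93 and 2.48 CPM in ft null, and averaged 13.9 ± 1.20 CPM in w1118 (SD, n = 2), with little spread in either group. Its log2 difference of -2.35 (SE 0.175) passed in edgeR (adjusted p = 0.00052) and without each library in turn. Hsf, the transcription factor of the response, was at 108 ± 18.9 CPM in ft null and 172 ± 14.9 CPM in w1118 and did not pass (log2 difference -0.67, SE 0.162; adjusted p of edgeR 0.0616). Over all libraries Hsf passed in DESeq2 (adjusted p = 0.00754) and not in limma voom (adjusted p = 0.0665). With ft null replicate 1 left out, Hsf did pass in edgeR (-0.79, edgeR adjusted p = 0.00635). The Hsp90 gene Hsp83 had 3595, 2022, 2250 and 1077 CPM in ft null and 1243 and 2738 CPM in w1118, with full overlap. The Hip co-chaperone genes HIP-R (log2 fold change 0.64, edgeR adjusted p = 0.0512) and HIP (0.63, edgeR adjusted p = 0.075) did not pass in edgeR over all libraries. Both passed in the direction of higher levels without ft null replicate 1 (adjusted p = 0.0279 and 0.0346 in edgeR). Over all libraries DESeq2 called both (adjusted p = 0.00353 for HIP-R and 0.0162 for HIP). By limma voom, HIP-R passed (adjusted p = 0.048) and HIP did not (adjusted p = 0.0791). Hsf, Hsp83, HIP-R and HIP were chosen after their values were seen.

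Chaperones of mitochondria and endoplasmic reticulum gave 1 gene that rose, 0 that fell and 15 that did not pass of 16 tested, likewise near the 4.30% called over all genes, with a median log2 fold change of 0.19. The gene that rose was l(2)tid, a mitochondrial J-domain protein gene, at 160 ± 34.4 CPM in ft null embryos (SD, n = 4) and 84.9 ± 0.788 CPM in w1118 (SD, n = 2). Its log2 difference was 0.91 (SE 0.194) with an adjusted p of 0.0411 in edgeR. It no longer passed when ft null replicate 2, ft null replicate 3, w1118 replicate 1 or w1118 replicate 2 was left out, where the adjusted p of edgeR was 0.112, 0.0559, 0.146 and 0.194. Of 24 other stress genes, among them metallothionein, antioxidant and apoptosis genes, 19 were tested and 0 passed in edgeR. Unadjusted, 3 were lower and 0 higher at a p under 0.05, against 10.2% lower and 9.92% higher over all tested genes. DESeq2 called 3 of them, including Cat and Thor below, and limma voom 0, and the median log2 fold change was -0.02. Catalase (Cat), the tested gene of that list with the highest level, was at 547 ± 15.8 CPM in ft null embryos (SD, n = 4) and 699 ± 42.8 CPM in w1118 (SD, n = 2; log2 fold change -0.35, edgeR adjusted p = 0.119). Thor, a translation inhibitor gene chosen after its values were seen, was next to the threshold (log2 difference -1.01, edgeR adjusted p = 0.0503) and passed with ft null replicate 1 left out (-1.14, edgeR adjusted p = 0.0138), whereas its difference was -0.62 with w1118 replicate 1 left out (edgeR adjusted p = 0.214).

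**Figure D4:**
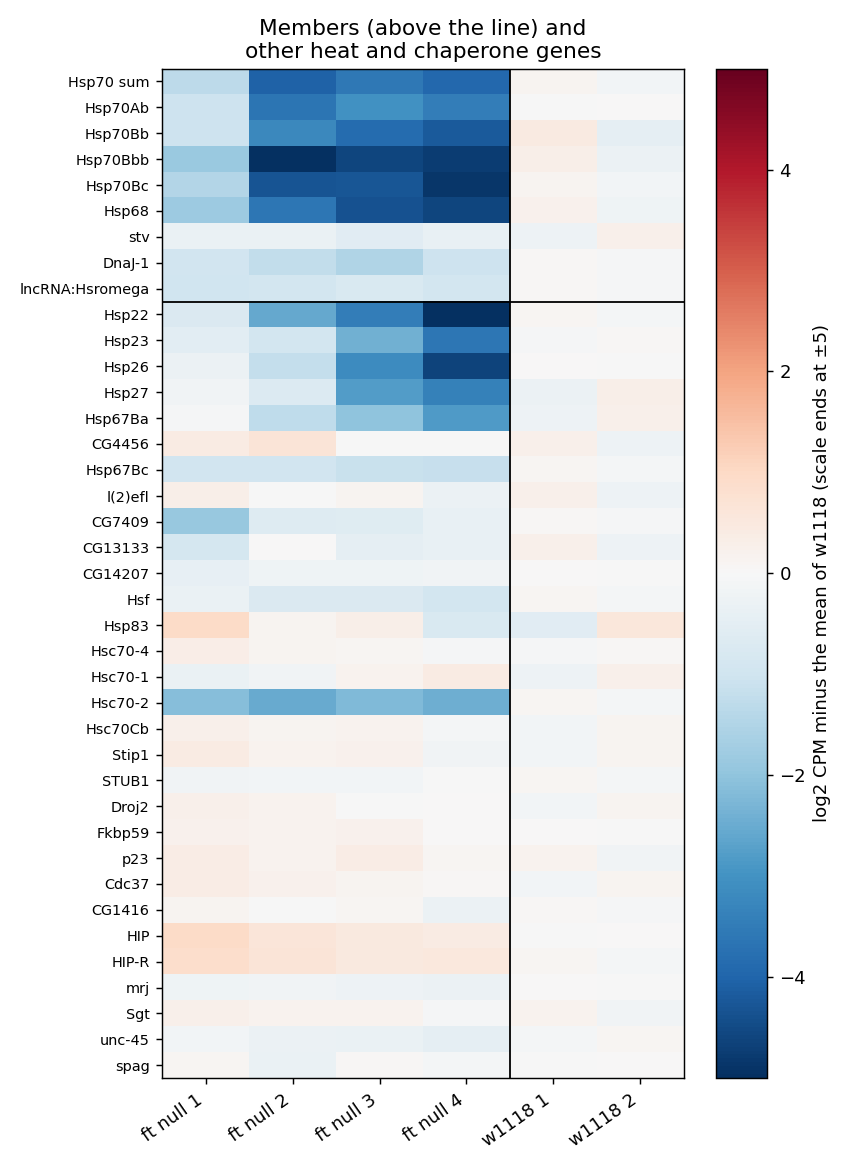
Each gene's log2 CPM minus its mean in w1118 (colour, blue lower and red higher, scale ending at 5 either way) in the 4 ft null and 2 w1118 libraries, for the Hsp70 sum and tested members above the horizontal line (Hsp70Aa left out) and for other heat and cytosolic chaperone genes below it. Among the ft null libraries, the Hsp70 rows and Hsp68 are palest in replicate 1. There the sum lies at -1.30, against -4.03 to -3.56 in the other mutants. Most cytosolic chaperones stay near 0.

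None of the tested genes next to the members passed the threshold. The nearest 2 annotated genes on either side of each member locus gave 24 genes, of which 22 were tested and 0 passed in edgeR, DESeq2 or limma voom. At an unadjusted p under 0.05 in edgeR, 4 were lower and 1 was higher, 5 of 22 against 20.1% of all tested genes. Their log2 fold changes ran from -0.51 (CG10089, beside stv) to 0.90 (aurA, beside 87A), with a median of -0.15. Beside the copies, CG31211 lies 125 bases from Hsp70Aa (log2 difference -0.44, SE 0.129, edgeR adjusted p = 0.106) and Octbeta3R 109 bases from Hsp70Bc (-0.46, SE 0.181, edgeR adjusted p = 0.205). CG5608, 155 bases from Hsp70Ba, was at 19.0 ± 2.89 CPM in ft null and 20.7 ± 2.63 CPM in w1118. The noncoding gene lncRNA:alphagamma-element, which lies between the 87C copies and is not among the 24, was at 7.74 ± 1.42 CPM in ft null embryos (SD, n = 4) and 11.9 ± 0.656 CPM in w1118 (SD, n = 2) and did not pass (log2 fold change -0.62, edgeR adjusted p = 0.118).

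Some of these genes overlap a member on the opposite strand, namely CG3281 at the end of Hsp70Ab and CG6000 and lncRNA:CR44097 at the end of Hsp68. Strand is not kept by the library kit, and reads from the overlaps cannot be assigned by it. CG3281 stood at 10.9 ± 1.71 CPM in ft null and 13.9 ± 0.266 CPM in w1118, and CG6000 at 4.27 ± 1.45 CPM in ft null and 4.50 ± 2.61 CPM in w1118 (SD, n = 4 and n = 2).

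**Figure D5:**
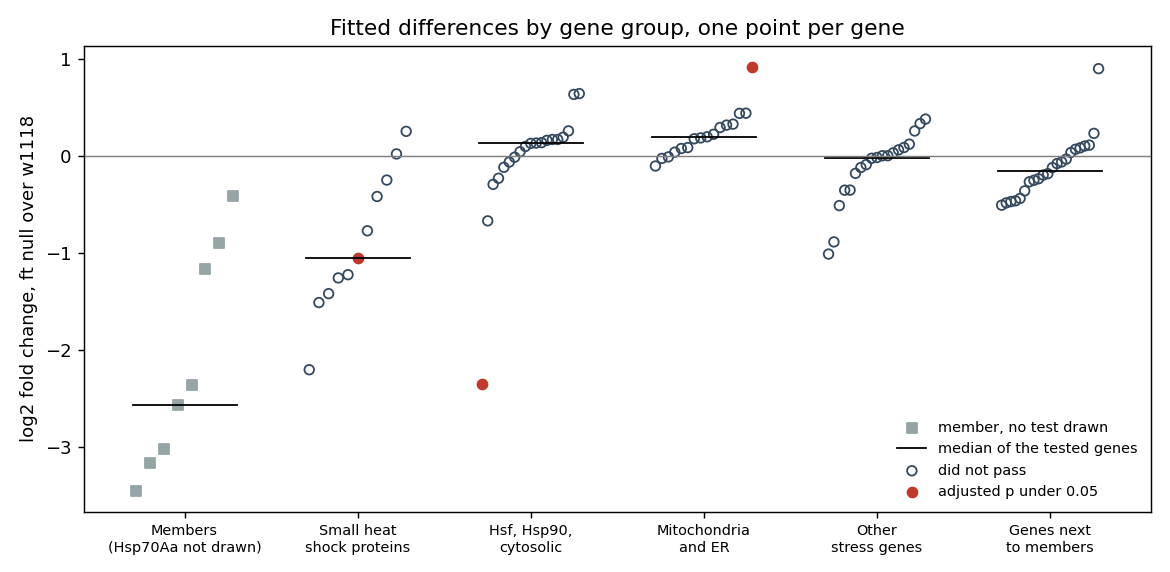
Fitted log2 fold change of ft null over w1118 for each tested gene, one point per gene, in the members (squares, with Hsp70Aa counted in the median and not drawn), the 4 lists of other stress and chaperone genes, and the genes next to the members. Lines mark the medians of -2.57, -1.05, 0.13, 0.19, -0.02 and -0.15 in that order, and filled circles mark the 3 genes outside the members with an adjusted p under 0.05.

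Genes with a pattern like the Hsp70 sum were ranked among 9791 genes by Pearson's r of log2 CPM over the 6 libraries, points that share the genotype contrast and ft null replicate 1 with every other gene. The most alike were ple, the tyrosine hydroxylase gene (r = 0.989), Pex13 (0.987), CG2010 (0.985), Atg13 (0.985) and Hph, a prolyl hydroxylase gene (0.981). Of the partners, Hsp68 ranked 11 (r = 0.97), DnaJ-1 128 (0.90), lncRNA:Hsromega 480 (0.79) and stv 919 (0.67), and Hsf, chosen after its values were seen, ranked 12 (0.97). Hph was at 53.0 ± 20.0 CPM in ft null embryos (SD, n = 4) and 162 ± 25.9 CPM in w1118 (SD, n = 2).

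Ranking after subtracting each genotype's mean removes the difference between genotypes and leaves mostly the contrast of ft null replicate 1 with the other mutants. The most alike were then CG11997 (r = 0.999), Ipod (0.998), GPHR (0.997), wuho (0.995) and slbo (0.992), a list with no gene in common with the first. Hsp68 ranked 332 (r = 0.90) and Hsf 349 (0.90). By this measure r was 0.55 for DnaJ-1, 0.05 for stv and -0.48 for lncRNA:Hsromega. CG11997 went the other way between genotypes, with 8.66 ± 1.61 CPM in ft null embryos (SD, n = 4) and 1.12 ± 0.0258 CPM in w1118 (SD, n = 2).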

How the data were processed

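Libraries were made with the SMARTer Ultra Low kit from 10 ng of RNA (integrity above 8.0), amplified for 12-15 cycles and read as pairs of 150 bases, per the labels' protocols. The values are estimated counts, deposited without normalization in 1 table. The submitters' processing notes name FastQC 0.10, Trimmomatic 0.33, Salmon 1.80, edgeR and build dm6; annotation and options: not given in the sources used here. Between 29.6% and 36.1% of a library's values were not whole, and the estimates were rounded before the tests.

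CPM with TMM factors, filterByExpr and the quasi-likelihood test came from edgeR 4.0.16 (R 4.3.3), with genotype as the only term over all 6 libraries, adjusted by Benjamini and Hochberg over 11542 genes. The standard error is the log2 fold change divided by the root of F. The Hsp70 sum was fitted as 1 row in place of the 6 copies. Likeness used log2 CPM with a prior count of 2 and an average of at least 1. Positions came from Ensembl release 115, which held 17083 of the genes. Alternatives used DESeq2 1.42.0 and limma 3.58.1 (voom), other filters and scalings, other sums and each library left out.

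The members and lists were chosen with earlier results of these data known. Named genes are the members, ft and w, called genes of each list or else its most abundant member, neighbours of the member loci, and the 5 genes most alike by each measure. Others are said to be chosen after their values were seen. HspBP1 matched no name in the table; CG4456, CG1416 and CG11267 stand for Hsp67Bb, Aha1 and Hsp10.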

Additional observations from a re-analysis of the deposited data

Results flagged for a closer look

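In the ft null group of 4 libraries, the gap between the extreme library and its nearest neighbour was set against the whole range for 48 quantities, the named genes and the Hsp70 sum by Dixon's criterion at the 95% level. The gap passed for 15, where chance alone gives about 1 in 20 for a single independent gene. The genes are not independent of each other, since they come from the same 4 libraries and the Hsp70 sum holds its own copies. No share over all tested genes is given for comparison, so 15 of 48 is not read as an excess. The gap was taken on CPM. It was not computed on the log2 scale, where a single high library stands out less.

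In 14 of the 15 the extreme library was ft null replicate 1, and it was the highest. The share of the range was 0.898 for Hsp70Ab, 0.945 for Hsp70Ba, 0.881 for Hsp70Bb, 0.927 for Hsp70Bbb, 0.949 for Hsp70Bc and 0.931 for the Hsp70 sum. Hsp68 fell just short at 0.828. The tyrosine hydroxylase gene ple gave 0.875, Pex13 0.991, Hph 0.897, CG11997 0.878, Ipod 0.84, wuho 0.884 and slbo 0.856. These 7 were ranked by their likeness to the Hsp70 sum, so their extreme library follows from that choice. A gene beside 87A, aurA, which encodes Aurora A kinase, gave 0.92, with 2.71 CPM in ft null replicate 1 and 1.55 to 1.64 CPM in replicates 2 to 4.

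The exception was stv, with a share of 0.882. Its extreme library was ft null replicate 3, the lowest at 205 CPM, with replicates 1, 2 and 4 at 236 to 240 CPM.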

How the results depend on the processing

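The log2 fold change of the Hsp70 sum kept its sign under every alternative run, from -3.83 (without ft null replicate 1) to -2.10 (replicates 1 and 2 only, without a block), with -3.19 in limma voom and -2.66 with the replicate block. The 9 tested members also kept their sign in each alternative. This could be foreseen, since they were chosen on this contrast and their groups did not overlap, and nothing is read from it. Counts moved more. DESeq2 called 970 genes; with replicates 1 and 2 only, 248 passed without and 493 with the replicate block. Without single libraries the count ran from 173 to 806. Scaling by library totals without TMM gave 213 higher and 303 lower genes. Of the members, 2 passed with replicates 1 and 2 only and 7 with the replicate block, where 117 and 262 of all tested genes were called lower. Leaving out single ft null libraries gave 3 to 8 members, beside 109 to 381 genes called lower. Small heat shock proteins gave 2 calls with the block and 1 to 3 without single libraries. The list of Hsf and cytosolic chaperones gave 4 in DESeq2, 2 in limma voom, without the filter and with the block, and 1 to 4 without single libraries. The mitochondrial and reticulum list gave 0 to 1 without single libraries. Other stress genes gave 3 in DESeq2, 1 under DESeq2 size factors in edgeR, without the filter and with library totals, and 0 to 1 without single libraries. The cause of these moves was not tested. Spearman's rho of the fifth most alike gene was 0.83 over the 6 libraries and 1.0 after subtracting genotype means. Same-numbered libraries deviated together by r = 0.153 and -0.0407 over genes, the labels do not say what a number marks, and the block is therefore not used above. DESeq2 gave no adjusted p for Hsp70Bbb and Hsp70Bc. The comparisons of copy sequences and heat shock elements, with their alternative windows and mismatches, were not run. With 2 w1118 libraries, the spread comes mostly from ft null.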
